A study of Mus musculus with 75 samples.

Results

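Among cells from damaged adult mouse cochleae, 16 nascent HCs were compared with 15 SCs failing to become HCs, 31 of the 75 single-cell RNA-Seq libraries of the series. The groups were taken from the submitters' bracketed group name in each sample title. All 31 cells carried Tdtomato and came from mice named Fgfr3-Atoh1-Ikzf2-DTR, on C57BL/6. The alleles were Fgfr3-iCreER+ as driver, CAG-LSL-Atoh1+ and, at Rosa26, CAG-LSL-Ikzf2/+ as inducible transgenes, and Slc26a5 DTR/+ for damage. Tamoxifen at P30 and P31 let the Cre of Fgfr3-expressing supporting cells switch on Atoh1 and Ikzf2, with Tdtomato on the Ikzf2 allele. Diphtheria toxin at P36 (20 ng/g) then acted on outer hair cells, the cells that use the Slc26a5 promoter, and cells were picked by hand at P60. Both groups therefore shared every allele and both treatments, and they differed in what their own libraries held: the study named the 42 Tdtomato+ cells after sequencing, calling cells with Myo7a but not Prestin (Slc26a5) nascent HCs, cells with neither SCs failing to become HCs, and the other 11 OHC-like cells. The remaining libraries were 17 WT_P30 OHCs (Slc26a5 CreER/+; Ai9/+, tamoxifen at P20 and P21) and 16 WT_P60 SCs (Fgfr3-iCreER+; Ai9/+, tamoxifen at P30 and P31, mostly pillar and Deiters' cells). How many mice gave the cells is not stated in the sources used here, so each cell counts as 1 sample and p-values measure the spread between cells.

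Hair cells turn sound into electrical signals: deflection of the stereocilia pulls on tip links and opens mechanotransduction channels. Outer hair cells also amplify sound through Prestin, buffer calcium with proteins such as oncomodulin, and receive cholinergic efferent input. Supporting cells surround them, are joined by gap junctions of Connexin 26 and Connexin 30, and clear potassium. Atoh1 is the basic helix-loop-helix factor that starts hair cell differentiation in the embryo, and Ikzf2 (Helios) is a zinc finger factor of maturing outer hair cells.

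The groups did not come evenly from the libraries. The library numbers of the Tdtomato+ cells fall into 5 runs, here called library series A to E. Nascent HCs numbered 1 in A, 6 in B, 1 in C, 4 in D and 4 in E, and SCs failing to become HCs numbered 4 in A, 10 in C and 1 in E. Series B and D thus held no failing cell, and only 6 nascent HCs stood in a series with failing cells. Total counts ran from 7443598 to 22934062 in nascent HCs (median 11377686) and from 4264780 to 15549187 in failing cells (median 6985617). Nascent HCs had 8006 ± 664 genes (SD, n = 16) at 1 CPM (counts scaled to a common library total) or more and failing cells 6928 ± 1229 (SD, n = 15), a difference of 1078 genes (2-sided permutation test, p = 0.00358). Within series A, C and E the difference was 333 genes (exact permutation test, p = 0.724), with differences of 1711 genes in A, 170 in C and -859 in E. Failing cells 2 and 4 had fewer than 5000 genes, and 5 failing cells (2, 4, 10, 12 and 14) had a low mapping rate. Without these 5 cells the difference in genes detected was 634 genes (p = 0.0487, permutation test), and without cells 2 and 4 it was 714 (p = 0.0152, permutation test). Library series and group can be told apart only in part, and values within series stand beside the results that they touch.

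The sorting genes followed the group names, with low levels of Slc26a5 in 3 nascent HCs and of Myo7a in 3 failing cells. Levels are given in CPM scaled by TMM. Myo7a, the unconventional myosin of hair cell stereocilia, lay at 96.2 in the lowest nascent HC, 526 in the median cell and 1167 in the highest. In failing cells the median was 0 and the highest value 28.5, in cell 2, followed by 19.2 in cell 15 and 2.29 in cell 7. The groups did not overlap, which the sort itself fixes, so no test is given. WT_P30 OHCs averaged 561 and no WT_P60 SC had a Myo7a value above 0. Slc26a5 was above 1 CPM in 3 nascent HCs, at 14.9 in cell 2, 8.90 in cell 1 and 7.63 in cell 6, beside a mean of 1698 in WT_P30 OHCs. The lowest OHC-like cell had 16.2 CPM, so nascent HC 2 lay just below that group. The highest failing cell, cell 2, had 1.18 CPM, or 5 counts. Any gene that varied with Myo7a among the Tdtomato+ cells would differ between the groups in part because of the sort.

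Both groups carried the induced factors. Atoh1 was present in every cell, from 1365 through a median of 4341 to 16289 CPM in nascent HCs and from 390 through 2541 to 28916 in failing cells, and the ranges overlapped. Its log2 fold change, nascent HCs minus failing cells, was -0.14 ± 0.84 (SE), which did not pass the test (edgeR quasi-likelihood, adjusted p = 1.0) and turned positive in 4 of the alternative fits. Ikzf2 ran from 46.7 through 317 to 596 CPM in nascent HCs and from 116 through 533 to 2084 in failing cells. The log2 fold change of Ikzf2 was -1.02 ± 0.60 (SE; adjusted p = 0.643), and its mean was lower in nascent HCs in all 3 shared series. The failing cell with the most Atoh1, cell 6, also had the most Ikzf2. Transgene and endogenous transcripts are counted together for both genes. The plot of levels by cell shows these genes beside genes of both cell types.

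**Figure D1:**
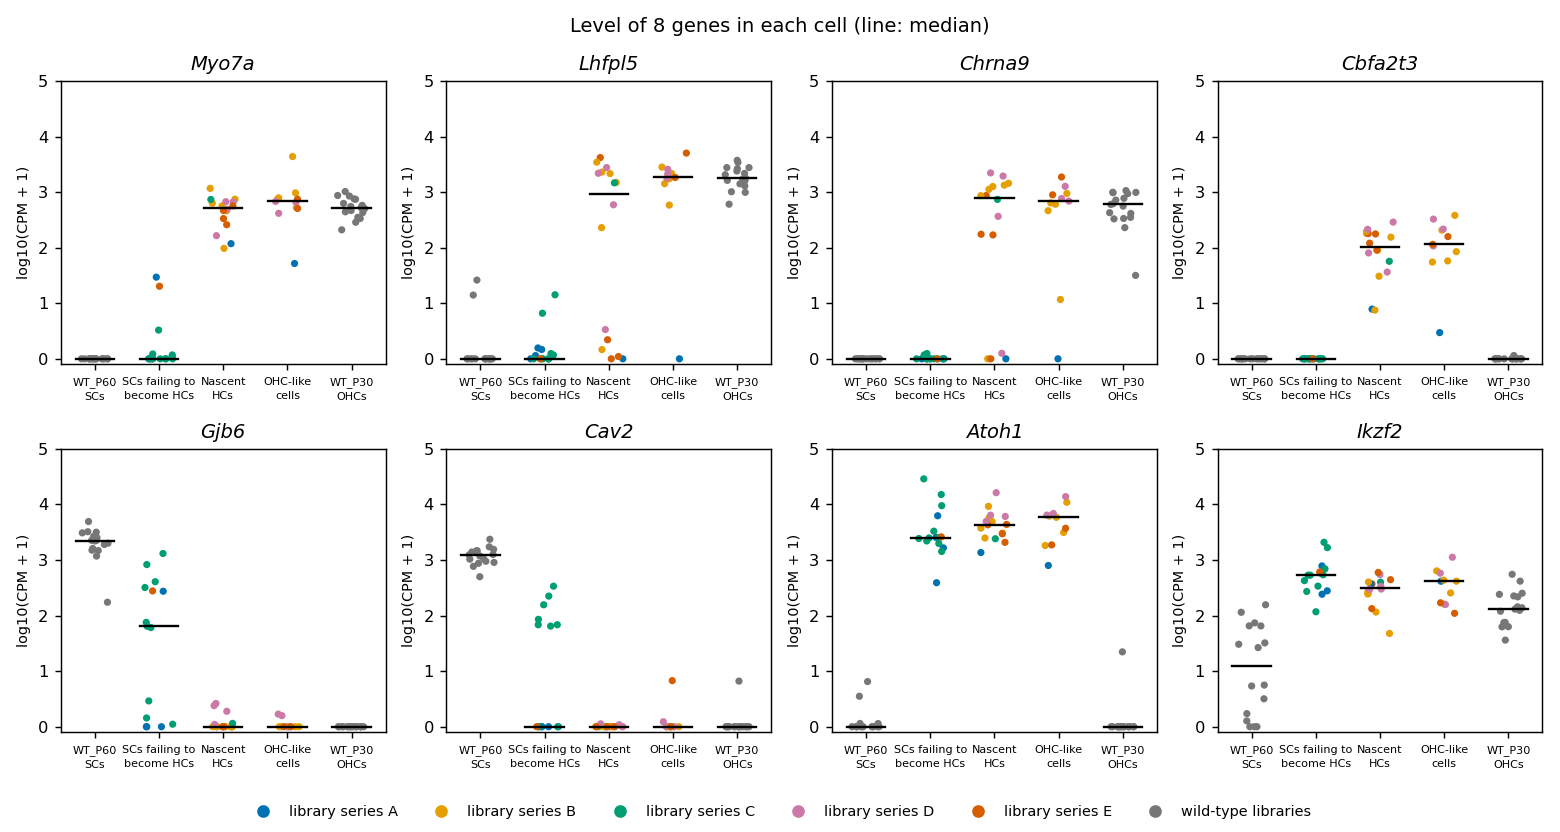
Level of 8 genes in each of 75 cells, as log10(CPM + 1), by group; each point is 1 cell, coloured by library series, and the line is the median. Atoh1 and Ikzf2 overlap between nascent HCs and failing cells, Myo7a and Cbfa2t3 do not, and Chrna9 and Lhfpl5 are near 0 in some nascent HCs.

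Of 11443 genes tested, 108 were higher in nascent HCs (0.944%) and 46 lower (0.402%), in a fit of all 5 groups; a call needed an adjusted p under 0.001 together with a change of more than 2 on the log2 scale. At an adjusted p under 0.05 with no limit on the fold, 367 were higher (3.21%) and 182 lower (1.59%). These counts depended on which cells entered the fit and on library series. With only the 42 Tdtomato+ cells in the fit, 73 genes were called higher and 3 lower. With library series as a covariate among the same cells, 11 genes were called higher and 0 lower, and 45 passed an adjusted p of 0.05 (edgeR), while limma-trend with the same covariate called 2 higher and 0 lower, with 986 genes at an unadjusted p under 0.05 and 625 in edgeR. Without the 5 failing cells of low mapping rate, 39 were higher and 28 lower. Among the 108 higher genes, the fit with library series tested 91, of which 84 kept the direction and 29 had an adjusted p under 0.05. Among the 46 lower genes it tested 6, all in the same direction, and 1 of them, Gjb6, had an adjusted p under 0.05. That fit filtered genes on the 42 Tdtomato+ cells alone. The other lower genes had passed the main filter only with the wild-type cells counted. The mean was on the called side in all 3 shared series for 15 of the 108 higher and 18 of the 46 lower genes. No count at all was found in any failing cell for 57 of the higher genes, and in any nascent HC for 23 of the lower genes. The fitted log2 fold change of such a gene rests on the prior count of the model and measures no size, so levels and numbers of cells are given first. Of the higher genes, 68 reached 1 CPM in 8 or more nascent HCs and 7 did so in 3 or fewer; of the lower genes, 7 reached it in 8 or more failing cells and 11 in 3 or fewer.

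Besides Myo7a, 10 leading genes in the higher direction fell into 3 patterns by what the wild-type cells expressed. The first was genes of wild-type outer hair cells. Chrna9, the nicotinic receptor subunit through which efferent fibres act on hair cells, was at 1 CPM or more in 12 of 16 nascent HCs and 0 of 15 failing cells. Its median in nascent HCs was 801 CPM and its highest value 2217, beside a mean of 609 in WT_P30 OHCs, and the highest failing cell had 0.245 CPM, or 3 counts. For Chrna9 the log2 fold change was 14.08 ± 1.34 (SE; adjusted p = 7.09e-12), and 13.62 with library series (adjusted p = 2.41e-06). The 4 nascent HCs without it were cells 3, 7, 13 and 16, of 4 different series. Gipc3, a PDZ-domain protein needed for hearing, was found in 12 nascent HCs, with a median of 31.9 CPM, in no failing cell (at least 88.2-fold higher, from a floor of 3 counts per library) and in 15 of 17 WT_P30 OHCs. Srd5a1, a steroid 5-alpha-reductase, was found in 12 nascent HCs, 0 failing cells and 15 WT_P30 OHCs. Its log2 fold change of 12.83 became 3.53 with library series, and it passed the test no longer. Ccer2, a coiled-coil protein that was found in 11 nascent HCs and 3 of 17 WT_P30 OHCs, and was also called higher in WT_P30 OHCs than in WT_P60 SCs, ranged up to 7248 CPM in 1 cell beside a median of 16.6, and 29.8% of its exon bases lie opposite Nfkbib.

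The second pattern was genes found in nascent HCs and OHC-like cells but in neither wild-type group. Cbfa2t3, a transcriptional corepressor of the ETO family, was above 1 CPM in every nascent HC and had no count in any failing cell. Its levels ran from 6.52 through 105 to 288 CPM, at least 277-fold higher on average. The fitted log2 fold change was 12.98 ± 1.08 (SE; adjusted p = 2.57e-12), its direction held in all 3 shared series, and it was found in 11 of 11 OHC-like cells but in no wild-type cell at 1 CPM. Besides Myo7a it was the only called gene whose groups did not overlap. Ifitm2, an interferon-induced membrane protein on the list of neonatal outer hair cell genes, was found in 15 nascent HCs and 0 failing cells, and in all 3 shared series. Its median was 51.7 CPM, with 40.9% of its exon bases shared with the model Gm45717 on the same strand, so reads of the 2 cannot be told apart there. Alpl, alkaline phosphatase, was found in 13 nascent HCs at a median of 247 CPM and in 0 failing cells. Ecel1, an endopeptidase of the neprilysin family, was found in 11 nascent HCs and Kif1a, a kinesin of axonal transport, in 9, both in 0 failing cells. These last 2 did not hold with library series, where Ecel1 had a log2 fold change of 1.32 and Kif1a one of 0.17.

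The third pattern was a supporting cell gene. Odf3l2, an outer dense fibre family protein, averaged 7151 CPM in WT_P60 SCs and was found in 16 of 16 of them. It was found in 12 of 16 nascent HCs at a median of 107 CPM, and no failing cell had a count of it. Among the Tdtomato+ cells, the group named as failing was thus the one without this transcript. It had an adjusted p of 3.5e-10, and of 7.53e-05 with library series, both in edgeR.

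The 12 leading genes in the lower direction were all found in wild-type supporting cells. Of these, only Gjb6, B4galnt1 and S100a1 passed the gene filter on Tdtomato+ cells alone. For the others, presence in wild-type cells was in part a condition of being tested. Gjb6, which encodes Connexin 30, was found in 10 of 15 failing cells, at a median of 63.3 and up to 1311 CPM, and in 2 of 16 nascent HCs, where the highest value was 1.62. WT_P60 SCs averaged 2262 CPM, so the failing cells lay below them. Gjb6 had a log2 fold change of -9.74 ± 1.26 (SE; adjusted p = 1.62e-07) and -12.24 with library series (adjusted p = 0.00207), and it was lower in all 3 shared series. S100a1, a calcium-binding protein of supporting cells, was found in every cell of both groups. It ran from 250 through 1702 to 7041 CPM in nascent HCs and from 101 through 11074 to 26554 in failing cells, beside means of 11086 in WT_P60 SCs and 3978 in WT_P30 OHCs. The S100a1 log2 fold change was -2.27 ± 0.39 (SE; adjusted p = 3.59e-05), and -1.13 with library series, where it did not pass.

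Each of the other 10 was found in 3 to 8 failing cells and in no nascent HC at 1 CPM. Cav2, a caveolin, was found in 7 failing cells, all of them of series C, at up to 337 CPM. Lgals3 (galectin-3) was found in 6 and reached 21572 CPM in cell 3, above the mean of 38.4 in WT_P60 SCs. B4galnt1, a ganglioside-forming transferase, was found in 8 failing cells, and its mean of 40.4 CPM was at least 143-fold above nascent HCs, which had no count. Fam107a, an actin-binding protein, and Tm4sf1, a tetraspan membrane protein, were found in 5 and 7 failing cells and in 16 of 16 WT_P60 SCs. Tmem221 (5 cells), the aldehyde oxidase gene Aox2 (5 cells), Trim29 (4 cells), the protease gene Tmprss2 (4 cells) and the netrin gene Ntn4 (3 cells) completed the set. Each of the 12 kept its call when any 1 of the 31 cells was left out, as did these 10 higher genes. By numbers of cells alone (Fisher's exact test per gene, 2-sided, adjusted over all 11443), these 10 higher genes each had an adjusted p under 0.05, and of the lower ones B4galnt1 did (adjusted p = 0.0453) while Gjb6 had 0.0924. The heat map shows the higher genes in most nascent HCs, with 3 of the 11 shown at 1 CPM or more in cells 3 and 7, and the lower genes spread over different failing cells.

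**Figure D2:**
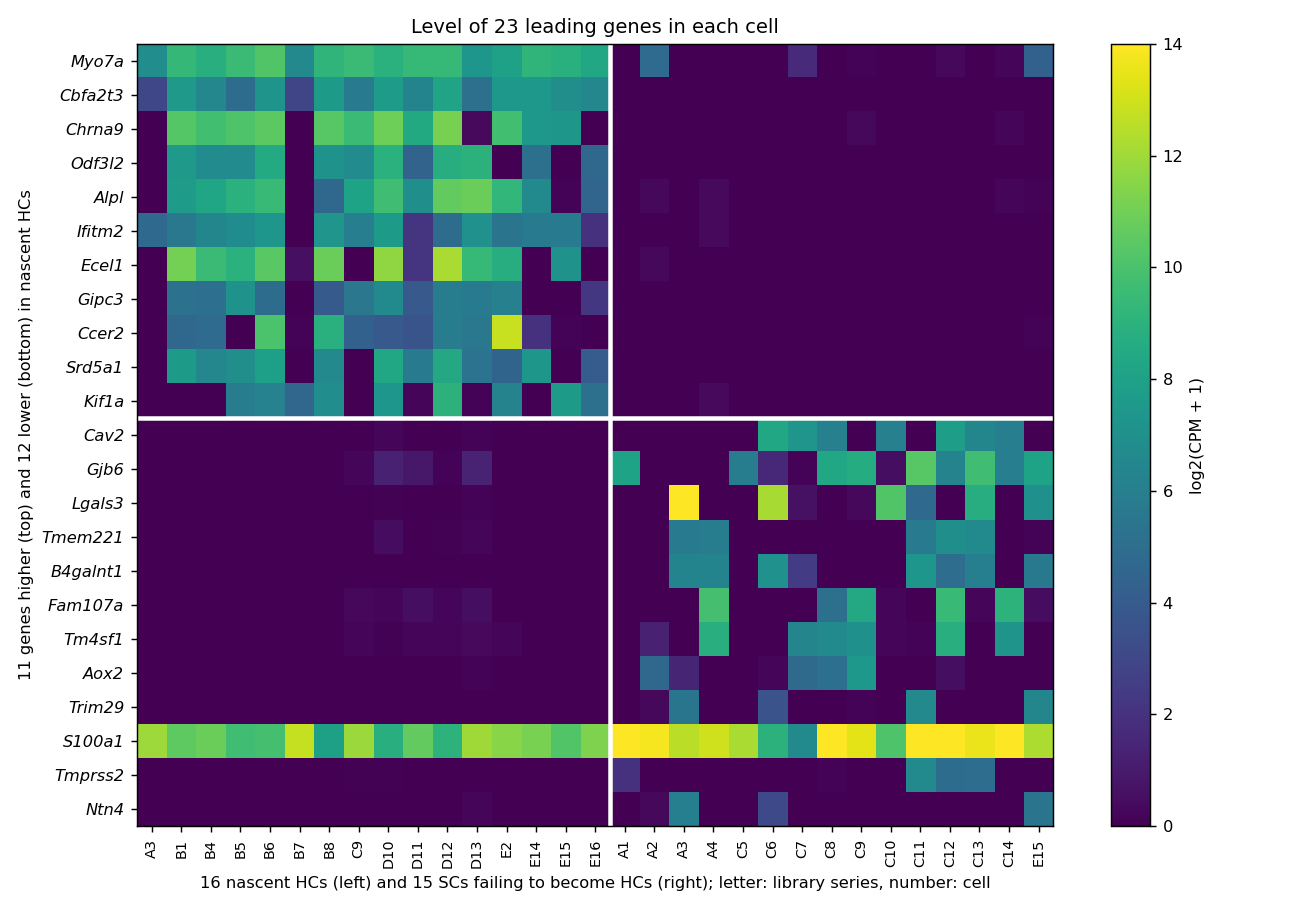
Level of 23 leading genes, as log2(CPM + 1), in 16 nascent HCs (left of the white line) and 15 SCs failing to become HCs (right), ordered by library series and named by series letter and cell number. Cbfa2t3 is above 0 in all 16 nascent HCs; nascent HC 7 of series B has 3 of the 11 higher genes shown; S100a1 is present throughout.

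The position of gene models and promoters was taken from GRCm38. Chrna9 lies at chr5:65934921-65977326 (+ strand), Cbfa2t3 at chr8:122625141-122699109 (- strand), Alpl at chr4:137741733-137796384 (- strand) and Gjb6 at chr14:57123303-57133611 (- strand), all protein-coding in GENCODE M21. Since Atoh1 and its relatives bind E-boxes, the letters CAGCTG, which read the same on both strands, were looked for in RefSeq promoter windows (GRCm38.p6, 250 bases before to 50 after a start site). The 12 leading higher genes were taken here with Myo7a and a gene not reported here. Of these 12, 10 had a window, and the letters stood in 6 of the 10 (60.0%). Among the 12 leading lower genes, 10 had a window and 2 had the letters (20.0%), beside 18.3% of all 27025 genes with a window. Over all called genes with a window, 24 of 69 higher (34.8%) and 8 of 35 lower genes (22.9%) had them. The shares are a description, without a test. The stretches before the start site in Chrna9 (chr5:65967071-65967123, + strand, inside its gene model), Alpl (chr4:137796515-137796600, - strand) and Ccer2 (chr7:28755992-28756077, + strand) are shown because these genes kept an adjusted p under 0.05 with library series and no annotated exon covers the stretch; capitals mark the match.
Chrna9: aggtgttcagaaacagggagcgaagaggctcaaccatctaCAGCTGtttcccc
Alpl: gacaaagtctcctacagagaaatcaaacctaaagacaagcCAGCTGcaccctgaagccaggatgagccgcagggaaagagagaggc
Ccer2: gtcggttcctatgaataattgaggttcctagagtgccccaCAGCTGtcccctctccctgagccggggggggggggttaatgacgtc
The match begins 13 bases before the start site in Chrna9, 176 in Alpl and 142 in Ccer2.

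Hair cell genes were then counted by role, from lists made with earlier results of these data known. The gene filter took in all 5 groups, so a member could be tested because wild-type or OHC-like cells expressed it. Counts of members are partly set by this, and numbers of cells are given with them. Among all genes tested, 0.944% were called higher and 0.402% lower. At an adjusted p under 0.05 the shares were 3.21% higher and 1.59% lower, and they stand beside every list below. For the regulators of hair cell identity, 13 of 16 listed genes were tested: 1 was called higher and 0 lower, 5 had an adjusted p under 0.05, all higher, and the median log2 fold change was 4.41 (3.63 with genes absent from failing cells set at their bound), beside 0.07 over all genes tested. The median member was found in 11 nascent HCs and 2 failing cells. Neurod6, a basic helix-loop-helix factor, was in 16 of 16 nascent HCs, from 73.8 through 489 to 1068 CPM, and in 2 failing cells, with a highest value of 134. Its log2 fold change of 5.08 had an adjusted p of 0.00812 in the fit and of 0.000971 by numbers of cells. Barhl1, a homeobox factor that keeps hair cells alive, was in 15 nascent HCs and 4 failing cells (log2 fold change 3.63, adjusted p = 0.0355), but 0.54 with library series. Pou4f3, the POU factor without which hair cells die, was the gene called, yet it was found in only 2 of 16 nascent HCs, at 533 CPM in cell 2 and 1.38 in cell 11, beside 17 of 17 WT_P30 OHCs with a mean of 629. Without cell 2 its adjusted p was 0.236. Srrm3, a neuronal-type splicing factor, was in 3 nascent HCs and 0 failing cells, at most 21.0 CPM (adjusted p = 0.00416).

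Of the mechanotransduction and tip link genes, 4 of 13 tested were called higher and 0 lower, beside 0.944% and 0.402% of all genes. The median log2 fold change was 1.55. Lhfpl5, a subunit that ties the channel to the tip link, had a median of 1030 and a highest value of 4189 CPM in nascent HCs, where it was found in 12 cells. In failing cells it was found in 2, at 13.2 and 5.62 CPM. Nascent HCs 3, 7, 15 and 16 were under 1 CPM and cells 14 and 11 stood at 1.20 and 2.36, so the ranges overlapped. Its log2 fold change was 9.92 ± 1.55 (SE; adjusted p = 5.27e-06), and 8.39 with library series (adjusted p = 0.045). Loxhd1, a stereociliary membrane protein, was in 8 nascent HCs and 0 failing cells, and Cdh23, the cadherin of the upper tip link, likewise in 8 and 0. With library series, Cdh23 stood at 2.77 and did not pass; 7 of the 8 nascent HCs with Cdh23 were of series B or D.

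Among 19 stereocilia and cuticular plate genes tested, 1 was called higher, 8 had an adjusted p under 0.05, all higher, and the median was 1.75. The same rules took in 0.944% and 3.21% of all genes in this direction. Strc (stereocilin), which links the tips of neighbouring stereocilia, was in 11 of 16 nascent HCs, at a median of 29.0 and at most 146 CPM, and in no failing cell at 1 CPM. WT_P30 OHCs averaged 659. It kept an adjusted p under 0.05 with library series (0.0217, log2 fold change 8.98). The glutaredoxin-like gene Grxcr2, the phosphatase gene Ptprq and the actin-binding gene Xirp2 had log2 fold changes of 7.94, 8.40 and 7.19 and were found in a single nascent HC, cell 2, at 333, 276 and 121 CPM; Grxcr2 was also in failing cell 2, at 1.41 CPM. Grxcr1 was likewise found in 1 nascent HC and 0 failing cells (log2 fold change 5.58). These 4 are among the 8 members under 0.05, so that count does not describe most nascent HCs.

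Calcium buffers gave 2 calls among 9 genes tested, 5 members at an adjusted p under 0.05 and a median of 5.40, the highest of the lists in this fit, beside 0.944% called and 3.21% under 0.05 among all genes in this direction. With library series the median was 2.39, and 1.21 in limma-trend, where the regulators, at 2.93, stood above it. Ocm, oncomodulin, was found in 6 nascent HCs and reached 6598 CPM in 1 of them, beside a mean of 27944 in WT_P30 OHCs and a nascent median of 0.298. Without nascent HC 5 its adjusted p was 0.0886. Calb1 (calbindin) was in 7 nascent HCs and 1 failing cell, and Pvalb (parvalbumin) in 10 and 2. Calml4, a calmodulin-like protein of the Usher network, was in 13 and 1, with a median of 461 CPM. Series B and D held 5 of the 6 nascent HCs with Ocm, 6 of 7 with Calb1 and 9 of 10 with Pvalb. With library series, Ocm, Calb1 and Pvalb turned to -0.40, -2.73 and -4.26 with no test passed, whereas Calml4 stood at 10.52 (adjusted p = 0.0523).

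Among synapse, receptor and channel genes, 2 of 13 tested were called higher, Chrna9 and Cacna1d, the calcium channel of hair cell transmitter release, beside 0.944% of all genes. With library series, Cacna1d had a log2 fold change of 5.62 and did not pass (edgeR, adjusted p = 0.862). Cacna1d was in 7 nascent HCs but at most at 45.8 CPM, beside a mean of 758 in WT_P30 OHCs. Chrna10, the partner subunit of Chrna9, was in 1 nascent HC (cell 2, 121 CPM) and 0 failing cells, against 17 of 17 WT_P30 OHCs with a mean of 579. Chrna9 was thus common in nascent HCs while its partner was found in a single one. Kcna10, a potassium channel, was in 3 nascent HCs and 1 failing cell.

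In each cell, the number of 77 listed hair cell genes at 1 CPM or more was set against that of 35 listed supporting cell genes. Nascent HCs had 22 to 61 of the former (median 38) and failing cells 10 to 31 (median 17), beside 14 in the median WT_P60 SC and 51 in the median WT_P30 OHC. Of the supporting cell genes, nascent HCs had 13 to 22 (median 16.5), failing cells 17 to 27 (median 21), WT_P60 SCs a median of 25 and WT_P30 OHCs one of 7. Nascent HCs 3, 7, 14, 15 and 16 had 22 to 25 hair cell genes, within the range of the failing cells, and failing cell 7 had 31. By series, nascent HCs averaged 42.2 in B and 38.2 in D, and 33.0 in E, where cell 2 had 61 and the other 3 had 22 to 25. Since members of these lists were also tested one by one and the cells were sorted by a hair cell gene, no test is given.

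**Figure D3:**
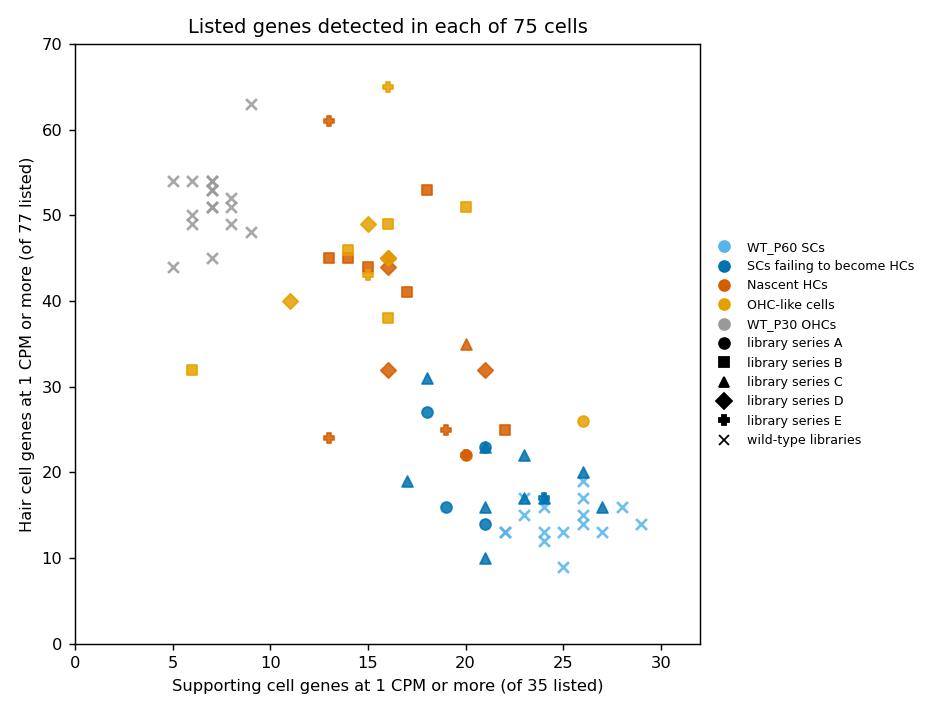
Number of listed supporting cell genes (of 35) and hair cell genes (of 77) at 1 CPM or more in each of 75 cells, coloured by group, with the marker shape showing the library series. Nascent HCs range from 22 to 61 hair cell genes and SCs failing to become HCs from 10 to 31; the wild-type groups lie at opposite corners.

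Of the supporting cell lists, none of 13 regulators and receptors passed either rule, and their median was -0.71. With 13 genes this is near the shares of all genes, which stand below. The log2 fold change was below 0 for 10 of the 13, beside 5390 of all 11443 genes, and above 0 for 3. Among those above 0, the homeobox gene Prox1 was in 16 nascent HCs and 4 failing cells (log2 fold change 1.36). Lgr5, a Wnt co-receptor, was in 15 nascent HCs and 12 failing cells, at medians of 70.6 and 190 CPM. Sox10, a neural crest and otic factor, was in 2 and 7 cells (log2 fold change -3.16, adjusted p = 0.36), Id4 in 12 and 14, and Fgfr1 in 14 and 15. Among 18 structural, junction and matrix genes, 0 were called higher and 2 lower, with 5 lower and 1 higher at an adjusted p under 0.05 and a median of -1.29. The 2 were the connexins. Of all genes, 0.402% were called lower, and 1.59% were lower and 3.21% higher at an adjusted p under 0.05. Gjb2, Connexin 26, was in 11 failing cells at a median of 105 CPM and in 3 nascent HCs, of which the highest, cell 7, had 16.2. Gjb2 had a log2 fold change of -6.39 (adjusted p = 0.000944), and the call was lost in 24 of the 31 fits that left out 1 cell, with an adjusted p of at most 0.00177 there. Bace2, a secretase, was in 14 failing cells at a median of 618 CPM and in 4 nascent HCs (log2 fold change -5.75, adjusted p = 0.0145). Fibin had a log2 fold change of 2.67 (adjusted p = 0.00728), although no cell of either group reached 1 CPM, and no fold is drawn from it.

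Of 17 Notch genes, 0 were called, beside 0.944% of all genes called higher and 0.402% lower. At an adjusted p under 0.05 the shares of all genes were 3.21% higher and 1.59% lower. With 17 genes, counts of 0 or 1 are near these shares and give no result about the list. Under the limit of 0.05, 1 of the 17 passed. This was Dll3, a ligand-like inhibitor of Notch signalling, which ran from 91.6 through 513 to 2007 CPM in nascent HCs and was found in 3 failing cells, at up to 300 CPM (log2 fold change 4.58, adjusted p = 0.00498, and 0.00284 by numbers of cells). Its mean was higher in nascent HCs in all 3 shared series. The ligand-like Dner was in 11 and 1 cells, and the Fringe transferases Mfng in 16 and 9 and Rfng in 14 and 5, with adjusted p of 0.0793, 0.219 and 0.232. Of 10 apoptosis regulators, 1 was called higher, beside 0.944% of all genes. It was Faim2, an inhibitor of Fas signalling, from 2 nascent HCs at 82.3 and 51.7 CPM. Bbc3 and Bcl2 did not pass (adjusted p = 0.194 and 1.0). Among 14 immediate early and heat shock genes, 0 were called, which with 14 genes is near the shares of all genes. The log2 fold change was below 0 for 13 of them, beside 5390 of all 11443 genes, and the median was -1.76. Zfp36 and Jun had adjusted p of 0.0579 and 0.0855, and Hspa1a one of 0.226. The exception was Hspa8, a constitutive chaperone, which was higher in nascent HCs (log2 fold change 1.22 ± 0.26, SE; adjusted p = 0.000782) at medians of 3275 and 1361 CPM, but stood at 0.45 with library series, where it did not pass. Of 6 cell cycle genes tested, Cdkn1c, a cyclin-dependent kinase inhibitor, had an adjusted p of 0.0273, found in 15 nascent HCs and 4 failing cells, while Mcm2, Cdkn1a and Pcna did not pass.

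The last lists held genes that the study had taken from published neonatal cells. Of 40 neonatal outer hair cell genes tested, 1 was called higher (Ifitm2) and 3 had an adjusted p under 0.05, all higher, beside 0.944% and 3.21% of all genes, with a median of 0.94: besides Ifitm2 and Neurod6 this was Ap1ar, found in 16 and 13 cells (log2 fold change 2.38). Anxa4, an annexin, had medians of 3022 and 414 CPM (adjusted p = 0.0767). Of 25 neonatal inner hair cell genes, 1 was called higher, 2 were higher and 3 lower at an adjusted p under 0.05, and the median was 0.58. The shares of all genes were 0.944%, 3.21% and 1.59%. Camk2b, a calcium-dependent kinase, was in 10 nascent HCs and 0 failing cells, and kept an adjusted p of 0.0153 with library series. Tspan17, Paqr9 and Kcnip3 were lower, but were found in only 4, 1 and 1 failing cells and in no nascent HC. Of 12 utricular hair cell genes, 2 were called higher, beside 0.944% of all genes. Cfap161, a cilium-associated protein, was in 16 of 16 nascent HCs, from 30.7 through 63.5 to 559 CPM, and in 1 failing cell at 33.0, and the direction held in all 3 shared series (log2 fold change 6.01, adjusted p = 0.000958, and 0.000512 with library series). The call of Cfap161 was lost in 28 of the 31 fits that left out 1 cell, with an adjusted p of at most 0.00197 (edgeR). Nme9 was in 7 nascent HCs, all of series B or D, and in no cell of the shared series. Mllt11 and Mapk10 did not pass.

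The fit with library series separated the called genes, as the plot of the 2 fits shows. One set, which held Chrna9, Cbfa2t3, Odf3l2, Ifitm2, Gipc3, Lhfpl5, Strc, Cfap161 and Gjb6, kept its direction and an adjusted p under 0.05. Another, which held Ecel1, Kif1a, Ocm, Calb1 and Cdh23, lay between -2.73 and 2.77 and did not pass. Series B and D, which hold no failing cell and 10 of all 16 nascent HCs, held 9 of the 11 nascent HCs with Ecel1, 6 of 9 with Kif1a and 7 of 8 with Cdh23. They held a like part of the first set, with 9 of 12 for Odf3l2, Gipc3 and Lhfpl5 and 8 of 11 for Strc. For these cells of both sets, group and series cannot be told apart.

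**Figure D4:**
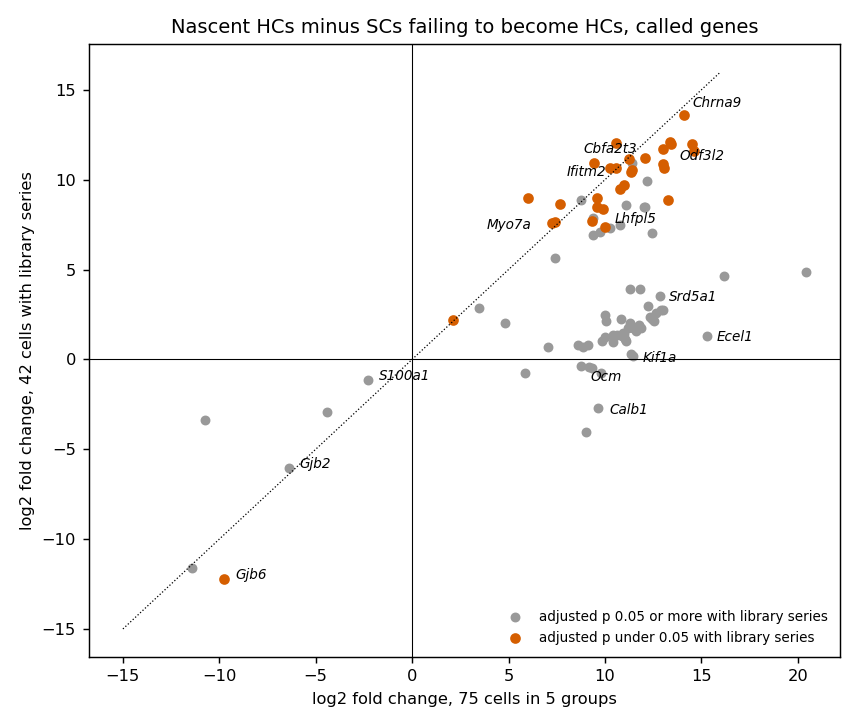
Log2 fold change of called genes, nascent HCs minus SCs failing to become HCs, in the fit of 75 cells in 5 groups (horizontal axis) and in the fit of 42 Tdtomato+ cells with library series (vertical axis); each point is 1 gene, the dotted line marks equal values, and orange points had an adjusted p under 0.05 in the second fit. Chrna9 and Gjb6 lie near the dotted line, and Ecel1, Kif1a and Calb1 near or below 0.

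The called genes were then looked up in the comparison of WT_P30 OHCs with WT_P60 SCs, which shares no cell with this one, though both came from 1 fit. There 568 genes were higher in outer hair cells (4.96%) and 1184 lower (10.3%). Of the 108 genes higher in nascent HCs, 56 were among the 568 (51.9% of the 108 and 9.86% of the 568), 7 were among the genes higher in supporting cells, and the rest were in neither. Of the 46 lower genes, 30 were higher in supporting cells (65.2% of the 46 and 2.53% of the 1184) and 1 in outer hair cells. The gene filter took in all 5 groups, so a gene could be tested because wild-type cells expressed it. These overlaps were therefore partly fixed in advance. On a line from the mean WT_P60 SC (0) to the mean WT_P30 OHC (1) over all 11443 genes, nascent HCs lay at 0.367 ± 0.075 (SD, n = 16) and failing cells at 0.282 ± 0.126 (SD, n = 15). Myo7a, by which the cells were sorted, is among these genes. A shift on this line, and each p-value for it, is therefore partly fixed by the sort. The difference of 0.085 passed the 2-sided permutation test (p = 0.0293). Within the shared series it was 0.068 (exact permutation test, p = 0.418), with -0.091 in A, 0.070 in C and 0.225 in E, and with a pseudocount of 0.1 it was 0.063 (permutation test, p = 0.113). With a pseudocount of 10 it was 0.124 (permutation test, p = 0.00118), and it was 0.183 when restricted to genes that differed between WT_P30 OHCs and WT_P60 SCs (permutation test, p = 2e-05, the smallest it can give). The highest nascent HC, cell 2, reached 0.537 and the lowest WT_P30 OHC 0.880, so that no nascent HC reached the outer hair cells. The failing cells with the highest values, 2 and 4, were the 2 with the fewest genes detected. Failing cell 6 lay at 0.457 with 5676 genes detected and 10 of the 77 listed hair cell genes. WT_P30 OHCs averaged 4697 genes at 1 CPM or more and WT_P60 SCs 6780. The part of the number of genes detected in the position was not tested.

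**Figure D5:**
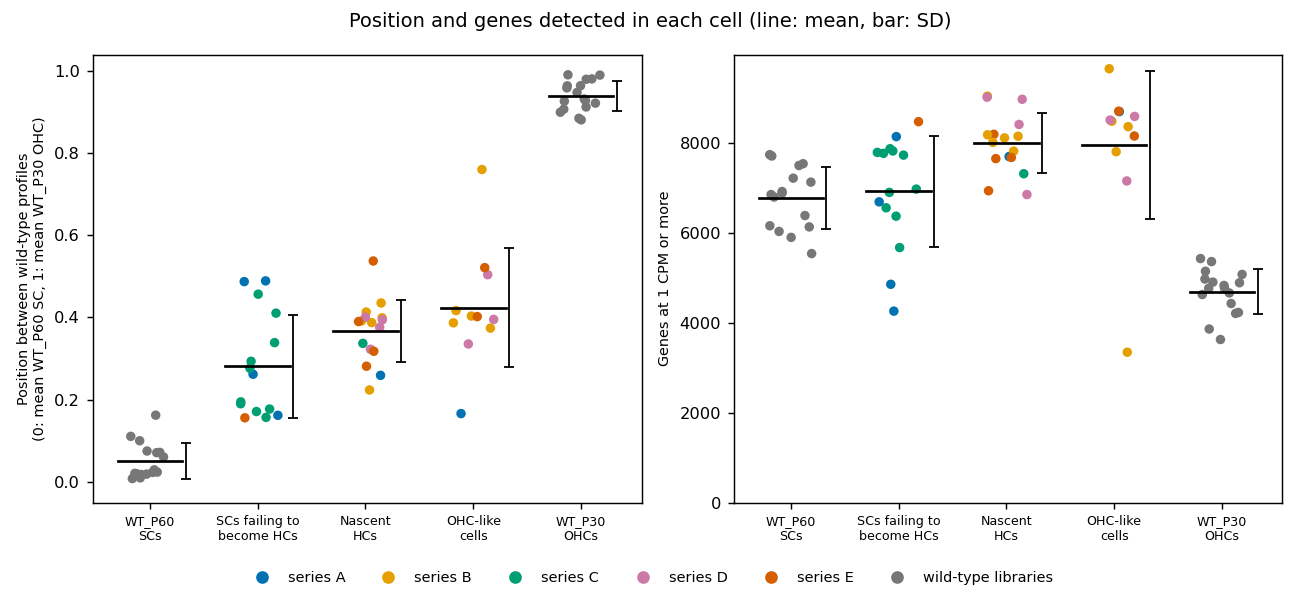
Position of each cell between the wild-type mean profiles (left) and number of genes at 1 CPM or more (right), by group; points are cells coloured by library series, lines are means and bars are SDs. Nascent HCs average 0.367 and SCs failing to become HCs 0.282 on the left, and 8006 and 6928 genes on the right.

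Markers of most other cell types were low in both groups, but neuron and Schwann cell markers were higher in nascent HCs. The summed level of 5 neuron markers had a median of 44.4 CPM (0 to 877) in nascent HCs, where 10 of 16 cells held one, and of 0.14 (0 to 72.0) in failing cells, where 5 of 15 did; Nefl was absent from nascent HCs. That of 4 Schwann cell markers had a median of 32.6 (0 to 147) in 16 nascent HCs and 0.16 (0 to 66.7) in 15 failing cells, and Pmp22 was under 1 CPM in both. Their part in the results was not tested. Summed macrophage markers reached 0.18 in nascent HCs and 13.4 in failing cells, haemoglobins 8.81 and 4.72, endothelial markers 22.1 and 0.98, fibroblast markers 60.6 and 134, and strial markers 32.0 and 42.7 CPM. Inner hair cell markers were found in 1 nascent HC and 2 failing cells. Of these 3 markers, Slc17a8 and Otof were found in WT_P30 OHCs, where 15 of 17 cells held one, at a summed median of 435 CPM. Slc7a14 was under 1 CPM in all 17 WT_P30 OHCs and was the only one of the 3 found in failing cells. The summed level therefore does not tell the hair cell types apart here, and no group of the series was inner hair cells.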

How the data were processed

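The values are unnormalized read counts for each gene in 75 single cells, in 1 table that the authors deposited. Per the labels and the study's methods, full-length cDNA was made with a Smart-Seq HT kit, and read quality was assessed in FastQC 0.11.9 before trimming in Trimmomatic 0.39; reads were aligned to mm10 with HISAT2 2.1.0 and counted with HTSeq 0.10.0. The strand setting and the annotation release are not given in the sources used here. There were no molecular identifiers, so floors cover counting error only. Columns were matched to samples by name, and groups came from the sample titles. The WPRE row, a viral element with 0.0254% of the counts, was left out.

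All 75 cells in 5 groups entered 1 fit: edgeR 4.0.16 in R 4.3.3 with TMM, filterByExpr (minimum count 10, which kept 11443 of 55291 genes), the quasi-likelihood F-test and Benjamini-Hochberg adjustment over all genes tested. Detection means 1 CPM of the cell's total count. Alternatives used DESeq2 1.42.0, limma 3.58.1, other scalings, filters, covariates, subsets of cells and thinning to 4264780 counts; fits on the 5-group gene filter, limma fits of subsets, tests of numbers of cells and leaving out each cell were added after the data were seen. Python 3.11.15, scipy 1.17.1 and 100000 resamples were used for permutation tests. Scripts were tested on simulated data. The genes named are Myo7a, Slc26a5, Atoh1, Ikzf2 and Lhfpl5, the 12 called genes per direction with the smallest adjusted p (without Gm, Rik and pseudogene models) and the 4 members per list with the smallest adjusted p; some genes of these are not reported here. Prox1 was added for its numbers of cells. The groups, members and lists were chosen with earlier results of these data known.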

Additional observations from a re-analysis of the deposited data

How the results depend on the processing

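Of 1382 values of 76 named genes under the alternatives, 1118 kept their direction and their side of the threshold, 204 kept the direction but passed the test no longer, 32 newly passed it and 28 changed sign. Of 252 medians of gene lists, 232 moved by less than the median standard error of the list's single genes in the main fit. That limit is wide and is not the error of a list median. Against 108 higher and 46 lower genes, the numbers were 269 and 108 with DESeq2 (104 and 39 of them shared), 236 higher with limma-trend (54 shared, and 6 of its 68 lower genes), 367 and 181 under looser limits (adjusted p 0.05, log2 fold change 1), 39 and 28 without the low mapping cells, 39 and 14 with only the groups compared on the same genes, 4 and 0 with only these groups and their own filter (7838 genes tested), 11 and 0 with library series, 2 and 0 with library series in limma-trend, 0 and 0 in series A, C and E (421 genes at an unadjusted p under 0.05 in edgeR) and 3 and 0 there in limma-trend. Lower genes numbered 3 with the 3 groups of Fgfr3-Atoh1-Ikzf2-DTR mice and 10 in limma-trend of the groups compared. By numbers of cells (Fisher's exact test), 6 and 0 were called, and 0 and 0 within series A, C and E, where 477 of 11443 genes had an unadjusted p under 0.05. The 421 genes in edgeR within these series were out of 9363 tested. The 549 genes at an adjusted p under 0.05 became 6117 with no filter (29042 genes tested), 1178 and 904 in limma-trend of all and of the compared groups, 245 with 3 groups, 238 and 0 by numbers of cells in all series and in A, C and E, 45 and 23 with library series in edgeR and limma-trend, 37 with only the groups compared, and 3 and 12 within series A, C and E in edgeR and limma-trend. Leaving out 1 cell at a time gave 85 to 125 higher genes, 35 to 71 lower genes (71 without nascent HC 7) and 511 to 628 genes at an adjusted p under 0.05; 78 of the 108 and 25 of the 46 kept the call each time. DESeq2 size factors moved the median log2 fold change of all genes from 0.07 to -0.10. Except where a setting tests fewer genes or cells, the cause was not tested.

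List medians moved as follows. With library series, the regulators became 2.12 (limma-trend 2.93), calcium buffers 2.39 (1.21), synapse and channel genes 0.55 (0.70) and, in limma-trend, cell cycle genes 1.59. Within series A, C and E, stereocilia genes became 0.27, supporting cell structure -3.87 and immediate early genes -3.18, and in limma-trend calcium buffers 0.95, synapse and channel genes 0.72 and cell cycle genes 1.53. DESeq2 gave mechanotransduction genes 3.01, limma-trend gave calcium buffers 3.51 both with all groups and with the compared groups, and the 3 groups gave supporting cell structure -2.76. The log2 fold changes that changed sign were, with library series, Ocm -0.40, Calb1 -2.73, Pvalb -4.26, Dner -4.01, Bcl2 0.93 and Pcna -0.0069; with library series in limma-trend, Ocm -1.11, Calb1 -0.31, Kcna10 -0.0502, Lgr5 0.72, Sox10 0.87, Fgfr1 0.29, Bcl2 0.80 and Nme9 -0.22; within series A, C and E, Mcm2 -0.014 and Pcna -0.12, and in limma-trend Kcna10 -0.37, Sox10 0.44, Fgfr1 0.15 and Mllt11 -0.044. Atoh1 became 0.74 with genes detected as a covariate and 0.39 in both limma-trend fits, Bcl2 0.29 in both, and Pcna -0.0096 with TMMwsp. The difference in genes detected was 333 and that in position 0.068 within series A, C and E, and 0.063 in position with a pseudocount of 0.1, none of which passed.

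Replicate numbers are shared by 15 pairs of cells but do not pair them: the correlations of their deviations ran from -0.10 to 0.03, and 0 cells matched best with their own number. With the replicate block, 111 genes were higher and 21 lower and 717 had an adjusted p under 0.05, the medians of regulators, calcium buffers and utricular genes were 8.30, 7.95 and 1.83, and Atoh1 and Bcl2 stood at 0.26 and 0.51.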

Other observations

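Some genes lower in nascent HCs were found in different failing cells, a pattern chosen after the values were seen and given without a test. Fam107a was at 1 CPM or more in failing cells 4, 8, 9, 12 and 14, at 34.8 to 928 CPM, and Tm4sf1 in these and in cells 2 and 7. Lgals3 was in cells 3, 6, 10, 11, 13 and 15, none of which held either gene. Fam107a and Tm4sf1 were in 16 of 16 WT_P60 SCs and Lgals3 in 9. Not every lower gene followed this split. Gjb6 stood at 319 and 406 CPM in failing cells 8 and 9, and at 1311 and 828 CPM in cells 11 and 13. Failing cells 2, 4, 12 and 14, which held Tm4sf1, and cell 10, which held Lgals3, had a low mapping rate.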
